A study of Rattus norvegicus with 50 samples.

Results

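ENSRNOG00000010932 is a rat Ensembl gene ID, 1 of the 32545 in the deposited expression table of a kidney study. It was chosen by its measured values in these libraries: a lower level in kidney cortex and medulla of obese than of lean rats, and its level under MK-8722 at each dose and under enalapril. Those contrasts are therefore described here and not tested. Neither the table nor the reference gene table, in which 0 of the 32545 IDs were found, pairs this ID with a name, so no role, position or sequence is given for it.

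The rats were of the ZSF1 strain, and all 50 libraries were made from total RNA of flash-frozen kidney after removal of ribosomal RNA. Obese rats received MK-8722 at 10 mpk, MK-8722 at 1 mpk, enalapril at 10 mpk or vehicle, in the dose unit of the labels, and lean rats received vehicle, all for 28 weeks. The labels give an age of 20 weeks beside that treatment time, so the age may belong to another time point. Each of these 5 treatments was measured in 5 libraries of cortex and 5 of medulla, which made 10 groups. The labels do not say whether libraries came from separate animals, or which cortex and medulla libraries share an animal, so the errors below measure the spread between libraries.

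Obese ZSF1 rats lack a working leptin receptor and develop obesity, diabetes, high blood pressure and progressive kidney disease. Their lean counterparts do not become obese or diabetic. AMP-activated protein kinase (AMPK) is a cellular energy sensor that turns on when ATP is scarce, raises fuel oxidation and restrains fat and sterol synthesis. MK-8722 is a direct activator that acts on all AMPK complexes, and enalapril inhibits the angiotensin-converting enzyme and is used against high blood pressure and kidney disease. The cortex holds the glomeruli and most proximal tubules, and the medulla holds the loops of Henle and the collecting ducts that concentrate urine. Because the IDs carry no names, the labelled tissues could not be checked against their marker genes.

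Values are FPKM, which divide a gene's fragments by its length in kilobases and by the mapped fragments of its library. The total fragments are unknown, but low values moved in steps of 1 fragment, and the step sizes gave depths relative to each other between 0.599 and 1.53. For ENSRNOG00000010932, 1 fragment was worth 0.0563 FPKM at a relative depth of 1, and all 50 values lay within 0.0168 fragments of a whole number. The level thus rested on 7 to 33 fragments per library in obese vehicle cortex and on 184 to 259 in lean vehicle cortex. In medulla it rested on 40 to 172 fragments in obese vehicle libraries and on 356 to 519 in lean vehicle libraries. The 95% Poisson intervals drawn from these fragments cover counting error only.

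**Figure D1:**
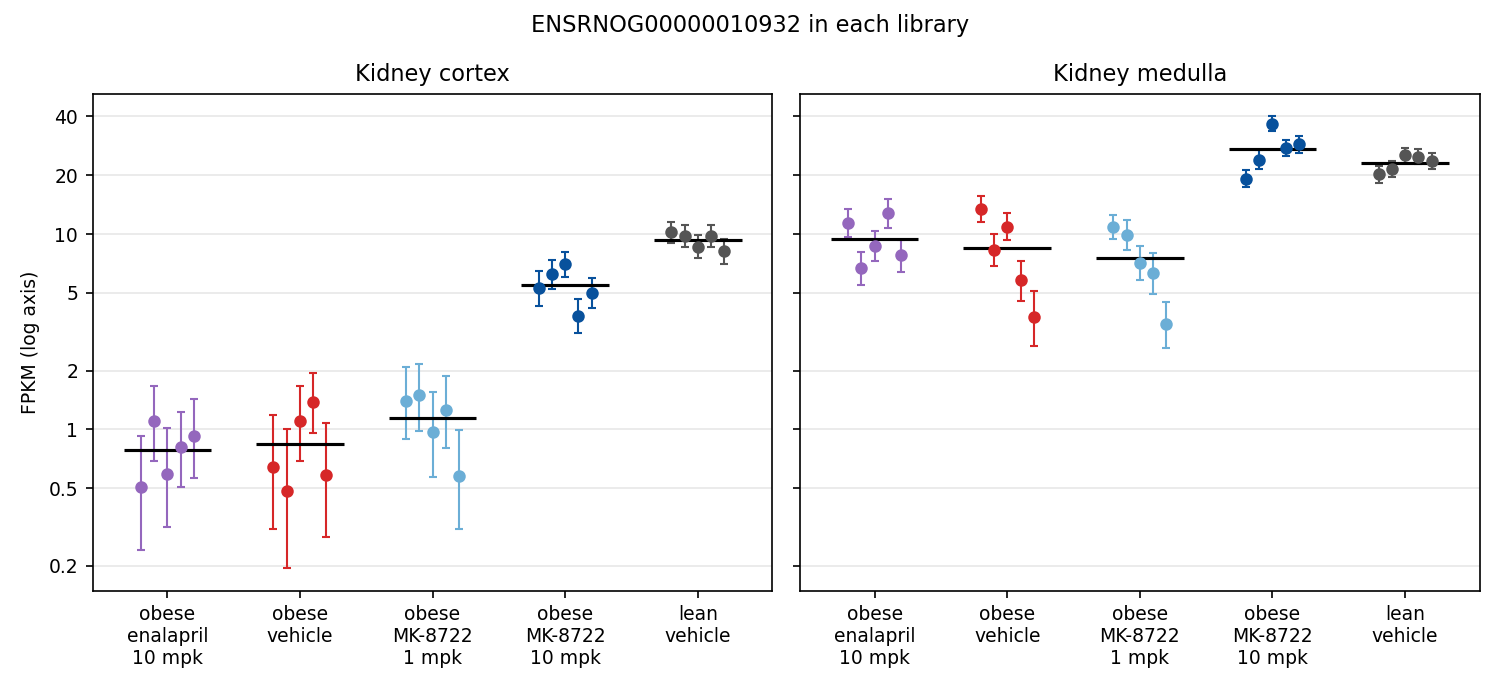
FPKM of ENSRNOG00000010932 (log axis) in each of the 5 libraries per group, in kidney cortex on the left and medulla on the right. Points are libraries with exact 95% Poisson intervals from their fragment numbers, and black lines are group means. In both panels the obese MK-8722 10 mpk libraries lie above all libraries of the other 3 obese groups; they lie below the lean vehicle libraries in cortex and overlap them in medulla.

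Obese vehicle cortex held little of this transcript. Its 5 libraries had 0.484, 0.583, 0.644, 1.10 and 1.39 FPKM. Lean vehicle cortex had 8.20, 8.63, 9.80, 9.80 and 10.2 FPKM. The groups did not overlap, and the highest obese library lay far below the lowest lean one. The means were 0.839 ± 0.386 FPKM in obese vehicle cortex and 9.33 ± 0.868 FPKM in lean vehicle cortex (SD, n = 5 each), a ratio of 0.0899. On the log2(FPKM + 0.5) scale, which understates changes of low genes, the difference was -2.92 ± 0.19 (SE). That was the lowest of the 13579 genes tested in cortex, where the median gene stood at 0.30. In whole tissue, fewer cells that express a gene and less of its RNA per cell cannot be told apart.

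In medulla the transcript was lower in obese rats as well, yet stayed well measured. The obese vehicle libraries had 3.76, 5.79, 8.33, 10.9 and 13.5 FPKM. The lean vehicle libraries had 20.2, 21.5, 23.7, 24.9 and 25.3 FPKM. Again the groups did not overlap, although the obese libraries were spread widely. The means were 8.46 ± 3.89 FPKM in obese vehicle medulla and 23.1 ± 2.21 FPKM in lean vehicle medulla (SD, n = 5 each), a ratio of 0.366. The log2 difference was -1.52 ± 0.28 (SE), rank 122 from the lowest among 14195 genes, whose median was 0.37. The ID was therefore not lost from obese kidney: every one of the 50 libraries held at least 7 fragments of it. Whether the cortex and medulla differences differ in size was not tested, since the choice of the ID rests on both.

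Library properties moved with obesity too. Relative depth averaged 1.02 ± 0.212 in obese and 1.36 ± 0.0811 in lean vehicle cortex, and 0.727 ± 0.0816 in obese and 1.13 ± 0.0773 in lean vehicle medulla (SD, n = 5 each). The median-ratio factor of a library, the median over genes of its value divided by the geometric mean of all libraries, averaged 1.06 ± 0.108 in obese and 0.813 ± 0.0136 in lean vehicle cortex. In medulla it averaged 1.21 ± 0.0411 in obese and 0.904 ± 0.0285 in lean vehicle libraries. After division by this factor ENSRNOG00000010932 averaged 0.826 ± 0.467 in obese and 11.5 ± 1.04 in lean vehicle cortex, and the log2 difference was -3.19. In medulla the rescaled means were 7.04 ± 3.39 in obese and 25.6 ± 2.63 in lean vehicle libraries, and the log2 difference was -1.92. With relative depth as a term the log2 differences were -2.79 ± 0.23 in cortex and -1.62 ± 0.44 in medulla (SE). The medulla SE was 0.28 without the term. Relative depth did not overlap between these medulla groups, at 0.599 to 0.815 in obese and 0.992 to 1.18 in lean vehicle libraries. The part of these properties in the lower level beyond these fits was not tested.

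Under MK-8722 at 10 mpk the level was higher than in obese rats given vehicle in both tissues. In cortex the treated libraries had 3.83, 4.99, 5.29, 6.23 and 6.99 FPKM. All 5 lay above every obese vehicle library and below every lean vehicle library. The means were 5.47 ± 1.21 FPKM with MK-8722 10 mpk and 0.839 ± 0.386 FPKM with vehicle in obese cortex (SD, n = 5 each), a ratio of 6.52. The log2 difference was 2.18 ± 0.19 (SE), rank 4 from the highest of 13579 genes. On the FPKM scale the treated mean stood at 54.5% of the way from the obese vehicle to the lean vehicle mean. Against lean vehicle cortex the log2 difference was -0.74 ± 0.19 (SE).

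Medulla under MK-8722 at 10 mpk reached the lean range. Its libraries had 19.2, 24.1, 27.6, 28.8 and 36.8 FPKM. All 5 lay above every obese vehicle library, 3 lay above every lean vehicle library and 1 lay below every lean one. The means were 27.3 ± 6.48 FPKM with MK-8722 10 mpk and 8.46 ± 3.89 FPKM with vehicle in obese medulla (SD, n = 5 each), a ratio of 3.23. The log2 difference was 1.72 ± 0.28 (SE), rank 2 from the highest of 14195 genes. The treated mean stood at 128% of the way from the obese to the lean vehicle mean, or at 101% on rescaled values. Against lean vehicle medulla the log2 difference was 0.21 ± 0.28 (SE) as deposited and -0.01 after rescaling.

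Some cortex libraries carried numbers from a separate higher range, which the labels do not explain: 3 under MK-8722 10 mpk, 1 under MK-8722 1 mpk, 1 with enalapril, 1 in obese vehicle and 2 in lean vehicle rats, 8 in all. With these left out, the log2 difference was 2.40 ± 0.21 (SE) between MK-8722 10 mpk and obese vehicle cortex. Between obese and lean vehicle cortex it was -3.07 ± 0.19 (SE). The first value lacks 3 of the 5 MK-8722 10 mpk libraries. A fit that included the number range gave 2.19 and -2.93. The higher range holds too few obese vehicle libraries for a value of its own. All medulla libraries had numbers in the lower range.

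MK-8722 at 1 mpk gave levels that overlapped those of obese vehicle in both tissues. In cortex its libraries had 0.577, 0.974, 1.25, 1.40 and 1.49 FPKM, from 13 to 27 fragments each. They overlapped the obese vehicle libraries, with 2 of the 5 above all of them. The cortex means were 1.14 ± 0.370 FPKM at 1 mpk and 0.839 ± 0.386 FPKM with vehicle (SD, n = 5 each), and the log2 difference was 0.30 ± 0.19 (SE). This value depended on the libraries used: without those of the higher number range it was 0.58 ± 0.17 (SE), and with the replicate number as a block 0.49 ± 0.19 (SE). In medulla the libraries had 3.44, 6.30, 7.14, 9.94 and 10.9 FPKM. They too overlapped the obese vehicle libraries, with 1 below all of them. The medulla means were 7.54 ± 2.98 FPKM at 1 mpk and 8.46 ± 3.89 FPKM with vehicle (SD, n = 5 each), and the log2 difference was -0.13 ± 0.28 (SE).

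The doses of MK-8722 could be set side by side directly, although the choice of the ID used both. In neither tissue did the libraries of the doses overlap. In cortex the mean was 4.799 times as high at 10 as at 1 mpk, with a log2 difference of 1.87 ± 0.19 (SE). In medulla it was 3.62 times as high, with a log2 difference of 1.85 ± 0.28 (SE). With vehicle as the low end, the cortex means ran 0.839, 1.14 and 5.47 FPKM over vehicle, 1 mpk and 10 mpk, and the medulla means ran 8.46, 7.54 and 27.3 FPKM.

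With enalapril at 10 mpk the levels lay among the obese vehicle values. In cortex its libraries had 0.505, 0.592, 0.811, 0.921 and 1.10 FPKM, from 10 to 22 fragments each. All of them lay within the range of the obese vehicle libraries. The means were 0.785 ± 0.241 FPKM with enalapril and 0.839 ± 0.386 FPKM with vehicle (SD, n = 5 each), and the log2 difference was -0.03 ± 0.19 (SE). In medulla the libraries had 6.69, 7.77, 8.71, 11.4 and 12.7 FPKM. These lay within the obese vehicle range as well. The means were 9.46 ± 2.53 FPKM with enalapril and 8.46 ± 3.89 FPKM with vehicle (SD, n = 5 each), and the log2 difference was 0.24 ± 0.28 (SE). It was 0.00 without obese vehicle replicate 7, the lowest of its group, and 0.43 without obese vehicle replicate 3, the highest.

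Set directly against enalapril, MK-8722 at 10 mpk had the higher level in both tissues, with no overlap between libraries. The log2 difference was 2.21 ± 0.19 in cortex and 1.49 ± 0.28 in medulla (SE). The comparisons with obese vehicle share the same 5 vehicle libraries in each tissue, so they are not independent of each other.

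**Figure D2:**
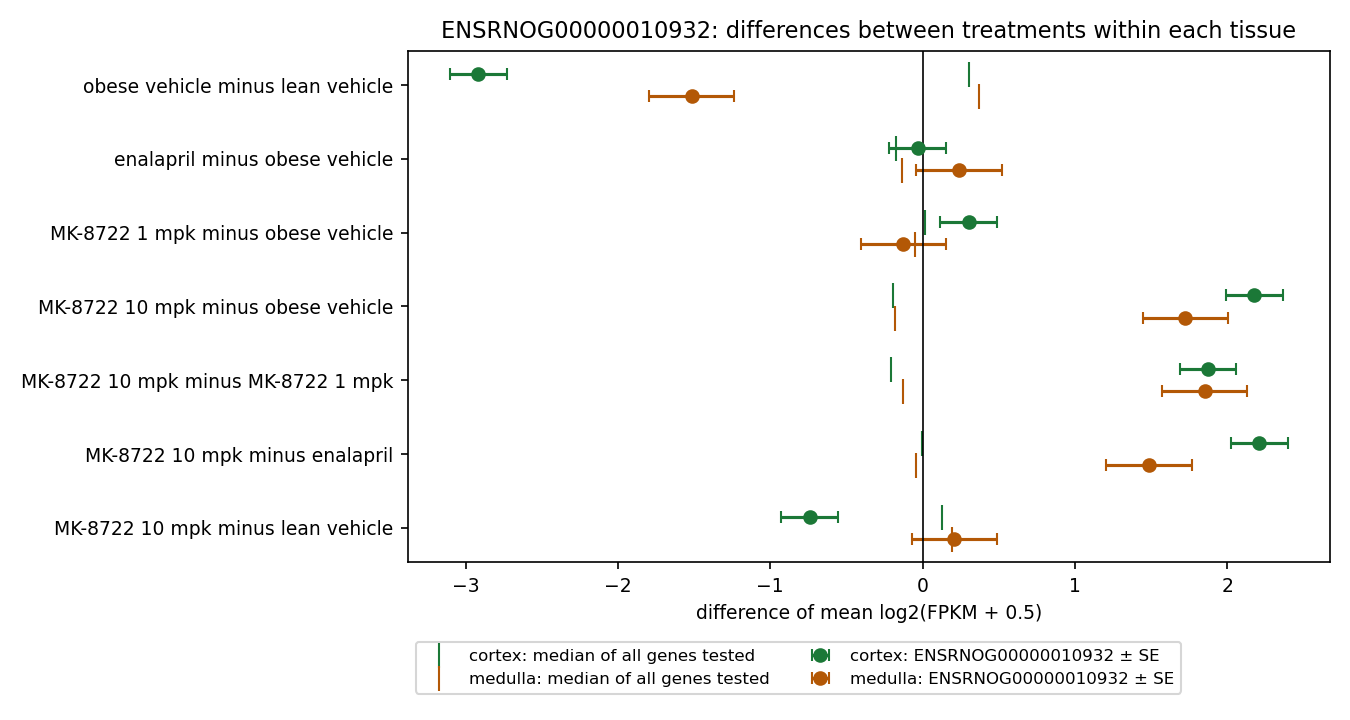
Difference of mean log2(FPKM + 0.5) of ENSRNOG00000010932 for 7 contrasts within each tissue, cortex in green and medulla in brown, with bars of 1 SE from limma fits of 25 libraries per tissue; vertical ticks are the medians of all genes tested. The contrast of obese with lean vehicle stands at -2.92 in cortex and -1.52 in medulla, that of MK-8722 10 mpk with obese vehicle at 2.18 and 1.72, and those of enalapril and MK-8722 1 mpk with obese vehicle lie between -0.13 and 0.30.

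Across all 10 groups the levels fell into 3 tiers, separated by the only neighbouring groups whose libraries did not overlap. The top tier was MK-8722 10 mpk medulla, at 27.3 FPKM, and lean vehicle medulla, at 23.1 FPKM. The middle tier held enalapril medulla at 9.46, lean vehicle cortex at 9.33, obese vehicle medulla at 8.46, MK-8722 1 mpk medulla at 7.54 and MK-8722 10 mpk cortex at 5.47 FPKM. In each of these neighbouring pairs the libraries overlapped. Lean vehicle cortex and MK-8722 10 mpk cortex, which are not neighbours in this order, did not overlap. The bottom tier was the cortex of rats given MK-8722 1 mpk, obese vehicle and enalapril, at 1.14, 0.839 and 0.785 FPKM, again with overlap between neighbours.

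Libraries of obese rats differed more among themselves than those of lean rats. The coefficient of variation was 46.0% in obese and 9.30% in lean vehicle cortex, and 46.0% in obese and 9.56% in lean vehicle medulla. Counting the recovered fragments alone would give 25.1% in obese and 6.66% in lean vehicle cortex. In medulla it would give 9.48% in obese and 4.65% in lean vehicle libraries. The highest obese vehicle library of medulla held 3.59 times the FPKM of the lowest. Spread between libraries adds to counting error in any group, and the measured coefficient exceeded the counting one in all 10. Under MK-8722 10 mpk the coefficient was 22.2% in cortex and 23.7% in medulla, against 8.86% and 4.95% from counting. Whether these spreads differ between groups was not tested.

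**Figure D3:**
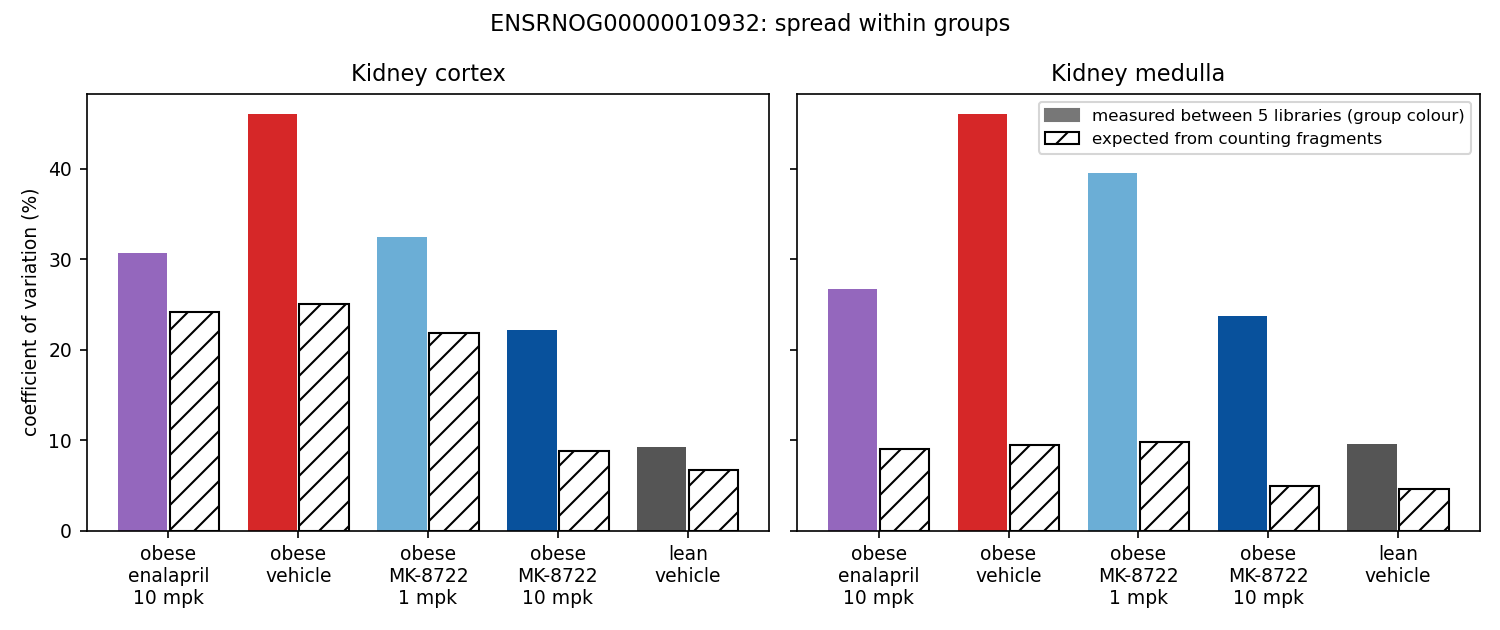
Coefficient of variation (%) of the FPKM of ENSRNOG00000010932 between the 5 libraries of each group (coloured bars) beside that expected from counting its fragments (hatched bars), in cortex on the left and medulla on the right. The measured value exceeds the counting value in all 10 groups, and is 46.0% in obese vehicle libraries of both tissues against 9.30% and 9.56% in lean vehicle libraries of cortex and medulla.

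The difference between the tissues was not itself a criterion for the ID, but its libraries are those whose values chose it, so it is described without a p-value. It came from a limma fit of all 50 libraries and 14586 genes. In lean vehicle rats the level was lower in cortex, at 9.33 ± 0.868 FPKM, than in medulla, at 23.1 ± 2.21 FPKM (SD, n = 5 each). The log2 difference was -1.26 ± 0.24 (SE), and all 5 cortex libraries lay below all 5 medulla libraries. This SE pools the spread over all groups, so it is the same for each treatment. With only the compared groups fitted, the SE was 0.08 in lean vehicle and 0.31 in obese vehicle rats. Many genes differ between these tissues: at a limma adjusted p under 0.05, 39.9% of the genes tested were called in either direction in lean rats. Lower in lean cortex were 28.4%, with 1681 genes higher and 4145 lower, against 2741 higher and 2851 lower after rescaling. The median gene stood at -0.14 in this contrast.

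The tissues differed in the same direction within each treatment of obese rats, where cortex libraries again all lay below medulla libraries. Under MK-8722 10 mpk the log2 difference between cortex and medulla was -2.21 ± 0.24 (SE). Under MK-8722 1 mpk it was -2.24 ± 0.24 (SE). With enalapril it was -2.94 ± 0.24 (SE). In obese vehicle rats it was -2.67 ± 0.24 (SE). The shares of genes called in either direction were 47.4% under MK-8722 10 mpk, 32.7% under 1 mpk, 51.6% with enalapril and 46.6% in obese vehicle rats. Those called lower in cortex were 36.2%, 21.4%, 41.6% and 35.1% in the same order, and 20.7%, 15.1%, 20% and 18.8% after rescaling. Rescaling brought the lower share of the called genes to between 47.2% and 49.2% in these 4 groups, against 65.4% to 80.7% as deposited. In FPKM, medulla held 4.995 times the cortex level under MK-8722 10 mpk, 6.62 times under 1 mpk, 12.05 times with enalapril, 10.1 times in obese vehicle and 2.48 times in lean vehicle rats. Whether the tissue difference itself changed with obesity or treatment was not tested.

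**Figure D4:**
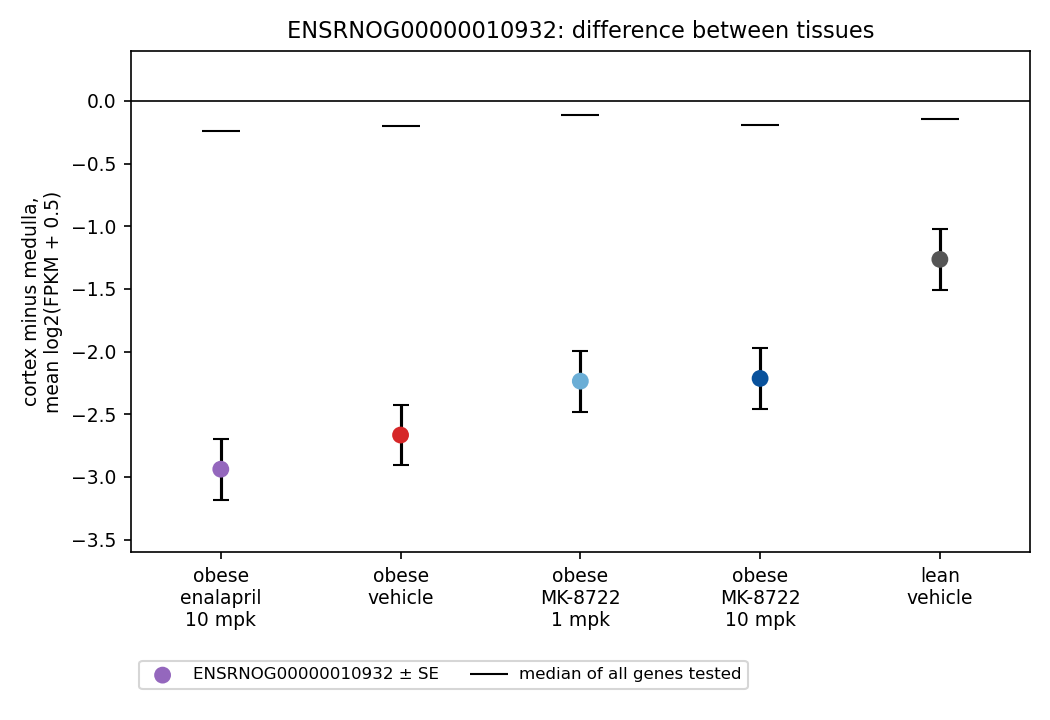
Cortex minus medulla difference of mean log2(FPKM + 0.5) of ENSRNOG00000010932 for each treatment, with bars of 1 SE from a limma fit of all 50 libraries; short lines are medians of the 14586 genes tested. The ID lies below the median gene in all 5 treatments, at -1.26 in lean vehicle and between -2.94 and -2.21 in the 4 obese groups.

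Few other genes were lower in obese and higher under MK-8722 10 mpk by a log2(FPKM + 0.5) difference of at least 1 in both tissues. This rule was set after the values were seen and on contrasts that chose the ID. It was applied to values as deposited, where the median gene stood at 0.30 in cortex and 0.37 in medulla between obese and lean vehicle. Between MK-8722 10 mpk and obese vehicle the median gene stood at -0.19 in cortex and -0.18 in medulla. Counts under this rule after rescaling were not made. Among 13373 genes tested in both tissues, a log2 difference of -1 or less between obese and lean vehicle was found for 0.583% in cortex and 2.47% in medulla. A difference of 1 or more between MK-8722 10 mpk and obese vehicle was found for 0.172% in cortex and 0.224% in medulla. All 4 conditions were met by 3 genes, or 0.0224%: ENSRNOG00000010932 itself, ENSRNOG00000006873 and ENSRNOG00000021027. The others were more abundant and stood less far below lean in cortex, but further below it in medulla. The medulla log2 differences were -1.69 for ENSRNOG00000006873 and -1.59 for ENSRNOG00000021027, against -1.52 for the ID. Between MK-8722 10 mpk and obese vehicle, ENSRNOG00000006873 had 2.71 in cortex and 1.95 in medulla, against 2.18 and 1.72 for the ID. For ENSRNOG00000021027 these were 1.29 and 1.36. ENSRNOG00000006873 averaged 347 ± 80.0 FPKM under MK-8722 10 mpk, 52.5 ± 11.9 FPKM in obese vehicle and 136 ± 11.9 FPKM in lean vehicle cortex, with the treated mean well above the lean one. ENSRNOG00000021027 averaged 60.1 ± 23.8 FPKM under MK-8722 10 mpk, 23.7 ± 7.24 FPKM in obese vehicle and 60.4 ± 6.18 FPKM in lean vehicle cortex (SD, n = 5 each). In medulla, ENSRNOG00000006873 averaged 207 ± 61.2 FPKM under MK-8722 10 mpk, 58.9 ± 30.2 FPKM in obese vehicle and 166 ± 15.4 FPKM in lean vehicle rats. There ENSRNOG00000021027 ran from 20.3 to 62.5 FPKM under MK-8722 10 mpk and from 9.86 to 24.0 FPKM in obese vehicle rats, so its libraries overlapped. These conditions leave out enalapril and the lower dose. With enalapril in cortex, ENSRNOG00000006873 averaged 47.2 ± 11.3 FPKM and ENSRNOG00000021027 24.8 ± 6.81 FPKM, near their obese vehicle means. ENSRNOG00000010932 too averaged near its obese vehicle mean there. At 1 mpk in cortex all 3 had means above obese vehicle, with 80.3 ± 18.6 FPKM for ENSRNOG00000006873 and 32.8 ± 8.52 FPKM for ENSRNOG00000021027. In medulla, ENSRNOG00000006873 averaged 117 ± 30.9 FPKM with enalapril, against 58.9 ± 30.2 FPKM in obese vehicle rats. ENSRNOG00000021027 averaged 25.8 ± 7.68 FPKM under MK-8722 1 mpk in medulla, against 16.3 ± 5.48 FPKM in obese vehicle rats. There ENSRNOG00000006873 averaged 66.4 ± 26.9 FPKM under MK-8722 1 mpk, and ENSRNOG00000021027 20.3 ± 6.46 FPKM with enalapril (SD, n = 5 each).

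Likeness of pattern was also measured over single libraries, as the smaller of the Pearson correlations with the ID over the 25 cortex and the 25 medulla libraries on the log2(FPKM + 0.5) scale. Of 12552 other genes compared, 2 had a likeness above 0.8 and 32 above 0.7, while the median was -0.53. On the opposite side, the larger of the 2 correlations was below -0.7 for 222 genes and below -0.8 for 5. The points of such a correlation share library, depth and treatment, and the values are given as descriptions. ENSRNOG00000007839 was the most alike, with r = 0.90 in cortex and r = 0.96 in medulla. It averaged 21.98 ± 2.05 FPKM under MK-8722 10 mpk, 11.0 ± 1.43 FPKM in obese vehicle and 18.9 ± 1.54 FPKM in lean vehicle cortex (SD, n = 5 each). In medulla it averaged 32.8 ± 5.35 FPKM under MK-8722 10 mpk, 16.5 ± 4.70 FPKM in obese vehicle and 34.7 ± 3.69 FPKM in lean vehicle libraries (SD, n = 5 each). Its contrast in cortex was thus much smaller than that of ENSRNOG00000010932, and its MK-8722 10 mpk mean there lay above the lean one.

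Part of this likeness lay within groups. After each group's mean was subtracted, ENSRNOG00000010932 and ENSRNOG00000007839 correlated with r = 0.87 in medulla and r = 0.49 in cortex (25 libraries each). ENSRNOG00000007839 was chosen by its correlation over these same libraries, so these values are part of that choice and no separate support. Such values were computed for the named genes only. Obese vehicle replicate 7 in medulla, for example, was the lowest of its group for both, at 3.76 FPKM for ENSRNOG00000010932 and 11.4 FPKM for ENSRNOG00000007839. The next most alike gene was ENSRNOG00000010259, with r = 0.82 in cortex and r = 0.80 in medulla, and r = 0.37 and r = 0.67 within groups. It averaged 3.27 ± 0.401 FPKM under MK-8722 10 mpk, 1.95 ± 0.866 FPKM in obese vehicle and 5.50 ± 0.559 FPKM in lean vehicle cortex (SD, n = 5 each).

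**Figure D5:**
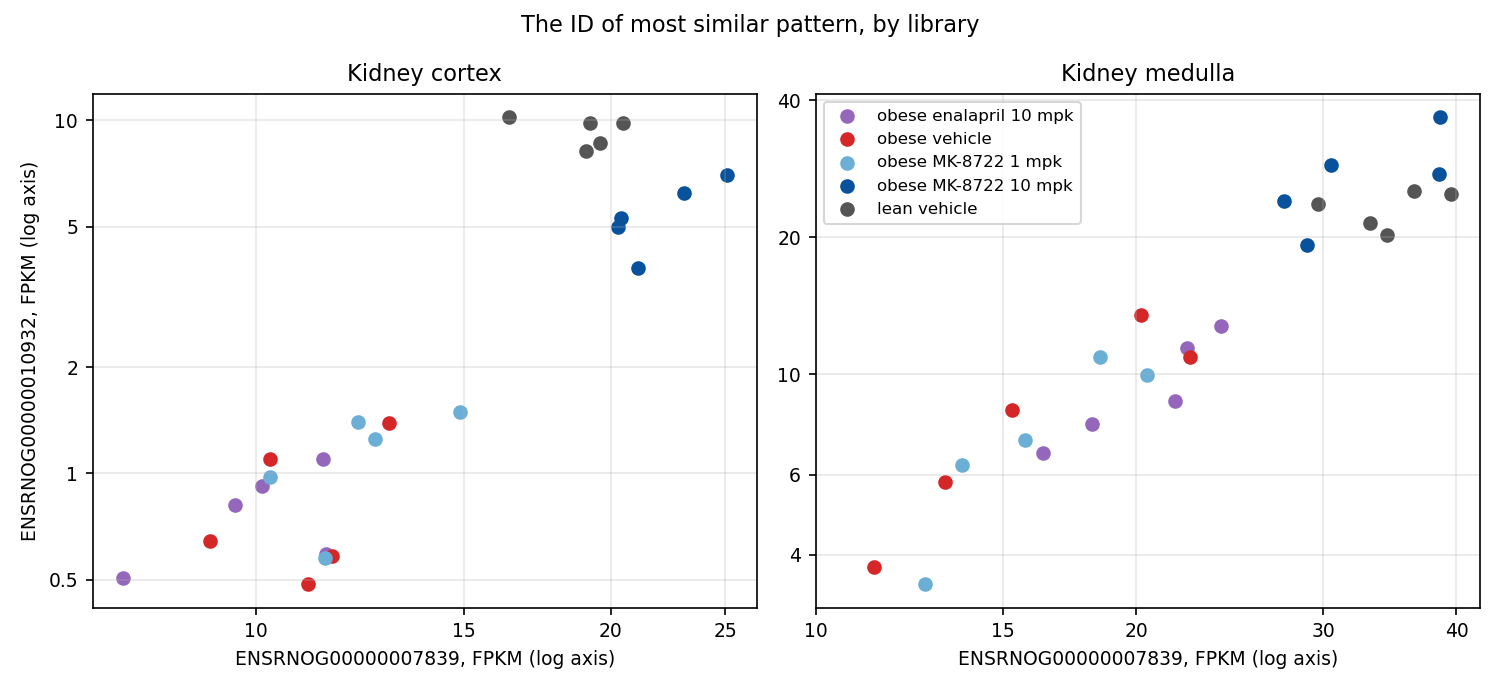
FPKM of ENSRNOG00000010932 (vertical, log axis) against FPKM of ENSRNOG00000007839 (horizontal, log axis) in the 25 libraries of cortex on the left and of medulla on the right, coloured by treatment. Libraries of MK-8722 10 mpk and lean vehicle rats lie at the upper right and those of the other obese groups at the lower left, with r = 0.90 in cortex and 0.96 in medulla.

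The most opposite genes were ENSRNOG00000009227, with r = -0.82 in both tissues, and ENSRNOG00000061128, with r = -0.82 in cortex and r = -0.81 in medulla. ENSRNOG00000009227 averaged 1.94 ± 0.522 FPKM under MK-8722 10 mpk, 3.25 ± 0.733 FPKM in obese vehicle and 1.38 ± 0.213 FPKM in lean vehicle cortex (SD, n = 5 each). ENSRNOG00000061128 averaged 16.2 ± 2.28 FPKM under MK-8722 10 mpk, 20.7 ± 2.43 FPKM in obese vehicle and 14.2 ± 0.543 FPKM in lean vehicle cortex (SD, n = 5 each). The choice of these opposite genes changed with the scaling and with the kind of correlation, as 0 of the 2 stayed among the first 2 after rescaling or with Spearman's rho. ENSRNOG00000007839 stayed first in each of these settings and with a pseudocount of 0.1.

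Within groups, the level of ENSRNOG00000010932 had r = 0.20 with relative depth over 25 cortex libraries and r = -0.07 over 25 medulla libraries, after subtraction of group means. With the median-ratio factor it had r = -0.65 over 25 cortex and r = -0.24 over 25 medulla libraries. The factor also differed between groups, at 0.915 ± 0.0865 under MK-8722 10 mpk and 1.06 ± 0.108 in obese vehicle cortex (SD, n = 5 each). After rescaling by it, MK-8722 10 mpk cortex averaged 6.10 ± 1.86 and obese vehicle cortex 0.826 ± 0.467, and the log2 difference was 2.30.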

How the data were processed

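The authors deposited FPKM values per Ensembl gene ID, as the name of the deposited table states. Per the labels' protocols, libraries were made with a stranded total RNA kit after removal of ribosomal RNA. The sources used here do not give the aligner, counter, build or annotation. Columns were matched to samples by the library number in each sample's description, and 0 columns were left over.

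A gene needed at least 1 FPKM in at least 5 of the libraries fitted, and was tested on log2(FPKM + 0.5) with limma 3.58.1 in R 4.3.3, with a mean-variance trend, robust moderation, a mean per group and a threshold of 0.05 on the Benjamini-Hochberg adjusted p. Tissue differences came from all 50 libraries, and contrasts within a tissue from its 25. Each fit pools the spread over all its groups, so an SE is not specific to the groups compared. All these differences and contrasts are described without p-values, since their libraries chose the ID. Calls over all genes are given as background. The limma fit of the lean tissue difference and the likeness measure were tested on simulated data. Other procedures, such as the depth and fragment estimates, were not.

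Relative depth came from the commonest ratio of low values between each of 1225 library pairs, in 5125 genes seen in 5 to 22 libraries. Of 57286 low values, 96.7% then lay within 0.1 of a whole fragment. The step of the ID was the one that best made its 15 values under 3 FPKM whole.

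The ID, the settings and the tests were chosen with earlier results of these data known. The likeness rule took genes with a mean of at least 2 FPKM in their highest group and named the 2 most alike and the 2 most opposite; ENSRNOG00000006873 and ENSRNOG00000021027 were named after their values were seen. Marker genes could not be matched without names.

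Same-numbered libraries were checked for a pairing. With at least 3 shared numbers, all pairs had r above 0.1 across genes in 2 contrasts, MK-8722 10 mpk with obese vehicle in cortex (0.22 to 0.37) and cortex with medulla under MK-8722 10 mpk (0.10 to 0.31). Libraries correlated best with their own number for 2 of the 3 shared numbers in the first contrast, and 1 of 3 in the second. Between obese and lean vehicle cortex this held for 3 of the 4 shared numbers, with r from -0.01 to 0.13. Between the doses of MK-8722 it held for 0 of 4 in cortex and 0 of 3 in medulla. The labels state no pairing.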

Additional observations from a re-analysis of the deposited data

How the results depend on the processing

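The 19 contrasts of ENSRNOG00000010932 gave 327 recomputed values. Of these, 324 kept their direction (differences between tissues) or moved by less than the SD between libraries, pooled over the 2 groups compared. The exceptions came with a pseudocount of 0.1: in cortex the log2 difference was -3.42 between obese and lean vehicle, 2.63 between MK-8722 10 mpk and obese vehicle and 2.67 between MK-8722 10 mpk and enalapril, since a smaller pseudocount shrinks low levels less; the difference between MK-8722 10 and 1 mpk in cortex was then 2.20. The tissue difference in lean vehicle rats ranged over the other settings from -1.30 to -1.12, and from -1.31 to -1.22 when single libraries were left out. With the replicate block it was -1.25. Under MK-8722 10 mpk the difference between tissues with this block was -2.25. In cortex, with the replicate number as a block, the difference between MK-8722 10 mpk and obese vehicle was 2.25. These blocks join libraries by number only, since the labels state no pairing. When single libraries were left out, small described values changed sign: enalapril minus obese vehicle in cortex ranged from -0.13 to 0.10 and MK-8722 1 mpk minus obese vehicle in medulla from -0.36 to 0.11. Enalapril minus obese vehicle in medulla ranged from 0.00 to 0.43 and MK-8722 1 mpk minus obese vehicle in cortex from 0.20 to 0.45. With only the compared groups fitted, enalapril against obese vehicle in cortex gave no value, since the ID failed the filter there. Number ranges apply to cortex only, so medulla contrasts have no such value.

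With relative depth as a term, the genes called between tissues numbered 2858, against 6913 without the term, under MK-8722 10 mpk, 3161 against 4775 under 1 mpk, 2782 against 7523 with enalapril, and 3698 against 6801 in obese vehicle rats. Without the higher number range, 4350 were called under MK-8722 10 mpk. The cause was not tested. Of the 2 most alike genes, 1 stayed among the first 2 after rescaling, with Spearman's rho and with a pseudocount of 0.1. Fragment numbers limit the obese cortex levels: the lowest library, with 7 fragments, has a 95% Poisson interval of 0.195 to 0.998 FPKM.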
